A study of Mus musculus with 2 samples.

Results

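Mesenchymal stromal cells, the connective tissue cells of marrow and other organs from which bone, fat and cartilage cells can be derived, are recognised by sets of proteins on their surface. Here the RNA of 10 genes for such surface markers, Eng, Thy1, Nt5e, Vcam1, Alcam, Mcam, Ngfr, Cd9, Cd24a and Cspg4, was examined in CH cells. The genes came from a list that was chosen with earlier results of these data known. Every probe set that the platform annotation assigns to 1 of these genes alone was used. All 10 genes, of 18193 genes with such a probe set, were represented, by 24 of 45037 probe sets. No probe set named a listed gene together with another gene.

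CH cells (Circulating cells with a Homing ability, called PlCH in the sample labels) were sorted by flow cytometry from the peripheral blood of healthy, untreated adult C57bl/6 mice of both sexes. They are small viable nucleated events without CD45 and without lineage antigens. Each of 2 Affymetrix whole-genome mouse arrays was hybridized with RNA of a pool of 15 mice aged 7 months, as the labels give it, and the pools are described as biological replicates. The general methods of the study give younger mice and smaller pools. There was 1 group and no control group, so the arrays show signal levels in CH cells and no change. RNA of pooled mice gives no spread between animals, and a low share of expressing cells cannot be told apart from little RNA in each cell. Over all probe sets the log2 difference from one array to the other had an SD of 0.20.

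The 10 markers belong to different protein families. Thy1, Nt5e and Cd24a are held in the membrane by a lipid anchor. Vcam1, Alcam and Mcam are adhesion molecules of the immunoglobulin superfamily. Eng is a co-receptor of the TGF-beta family, Ngfr a receptor for neurotrophins, Cd9 a tetraspanin and Cspg4 a transmembrane proteoglycan. Eng (CD105), Thy1 (CD90) and Nt5e (CD73) are the positive markers in the usual minimal definition of mesenchymal stromal cells, whereas the others have been used to enrich stromal cells or their subsets. None of the 10 is restricted to stromal cells, since several are also carried by T cells, B cells, red cell precursors, platelets, endothelium, pericytes, glia or epithelium.

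All 10 marker genes had signal above 5 (log2) on both CH cell arrays, while 4 of them, Vcam1, Alcam, Cd9 and Cd24a, were also above 8. The limit of 5 is the level under which, per the methods, genes were removed before clustering. For each gene the probe set with the highest mean was taken. Of all genes, 71.2% were above 5 and 37.0% above 8 on both arrays by the same rule, so the count of 4 above 8 was close to the share over all genes. Their median level was 7.39, and that over all genes was 6.84. Among single probe sets, 21 of 24 were above 5 on both arrays, beside 57.2% of all probe sets, and 11 were above 8, beside 24.4% of all. These 11 all came from the 4 genes above 8, and probe sets of a gene share a transcript and are not replicates. In a fit with limma across all probe sets, the mean of the same 21 lay above 5 at an adjusted p under 0.05, as did 54.8% of all probe sets and, by their highest probe set, 69.1% of all genes. The other 3 lay below 5 at that threshold, as did 36.4% of all.

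Signal above 5 is not by itself evidence of a transcript. Of 83 probe sets for receptors of smell, pheromones and taste, taken as background because blood cells are not known for them, 13 (15.7%) were above 5 on both arrays, and the 95th percentile of their means was 6.05. The highest probe sets of 8 of the 10 markers were above that level on both arrays. Those of Mcam and Ngfr were not. By this limit 57.3% of all genes were called, and at a limit of 6, which 57.8% of all genes passed, the same 8 markers remained. When the median of a gene's probe sets replaced the highest, 9 markers were above 5 (65.2% of all genes) and Ngfr was not. With the lowest probe set 8 were (50.4% of all genes), without Alcam and Ngfr. Signals of different probe sets also depend on how well their probes bind, so the levels of different genes are not ranked here by amount of RNA.

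**Figure D1:**
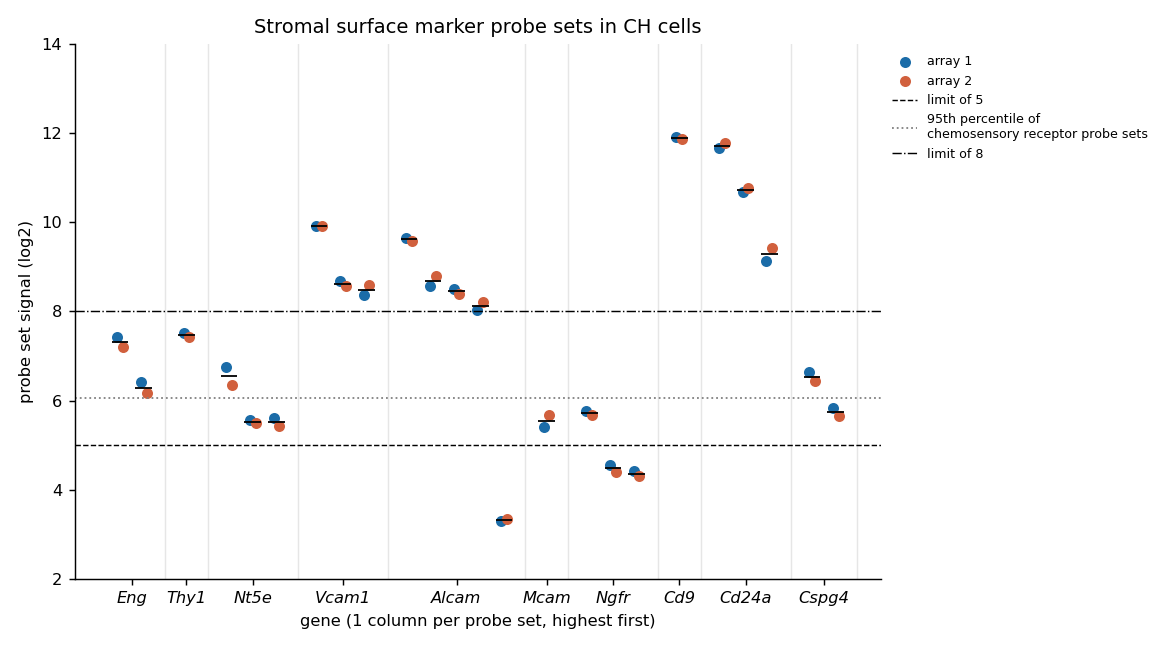
Log2 signal of each of the 24 probe sets of the 10 marker genes on array 1 (blue) and array 2 (orange), with a black bar at the mean of both arrays and the probe sets of a gene side by side. The dashed line marks 5, the dotted line the background level of 6.05 and the dash-dotted line 8, and 1 probe set of Alcam and 2 of Ngfr lie below 5.

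Within the minimal definition, Eng and Thy1 stood above background with every probe set and Nt5e with 1 of 3. Eng, also called endoglin, binds ligands of the TGF-beta family together with their signalling receptors. Its probe set 1417271_a_at was at 7.43 on array 1 and 7.20 on array 2, a mean of 7.32 ± 0.16 (SD, n = 2 arrays). The other Eng probe set, 1432176_a_at, was at 6.41 and 6.16. Both probe sets were lower on array 2, and the distance between them was 1.02 and 1.04 on the arrays. Thy1, a small glycoprotein also known from T cells and neurons, had 1 probe set (1423135_at), at 7.50 and 7.44, with a mean of 7.47 ± 0.049. The arrays differed there by 0.07, and 68.4% of all probe sets differed at least as much.

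Nt5e encodes the ecto-enzyme that makes adenosine from AMP outside the cell. Its highest probe set (1422974_at), annotated to a RefSeq mRNA, was at 6.75 on array 1 and 6.35 on array 2 (mean 6.55 ± 0.28). This was the largest difference between the arrays of any marker probe set, 0.40, and 5.50% of all probe sets differed at least as much. The 2 remaining Nt5e probe sets were at 5.57 and 5.49 (1459023_at) and at 5.60 and 5.42 (1428547_at). These 2 lay above 5 and below the background level of 6.05 on both arrays, so Nt5e exceeded background with 1 probe set only. The limma fit placed all 3 means above 5, with adjusted p-values of 6.6e-05, 9.8e-04 and 0.0018.

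Of the adhesion molecules of the immunoglobulin superfamily, Vcam1 and Alcam were above 8 with most probe sets and Mcam was within the range of background. Vcam1 is the ligand of the integrin VLA-4 on leukocytes, and in marrow it retains blood-forming cells. Its 3 probe sets were at 9.91 and 9.92 (1448162_at), at 8.68 and 8.56 (1415989_at) and at 8.37 and 8.58 (1451314_a_at). The first of these differed between the arrays by only 0.0059, and 96.9% of all probe sets differed at least as much. All 3 were above 8 on both arrays.

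Alcam (CD166), which binds itself and the lymphocyte receptor CD6, had 5 probe sets. On each array 4 of them were above 8. Of these, 1426300_at was at 9.64 and 9.59, 1426301_at at 8.57 and 8.80, 1437467_at at 8.50 and 8.40, and 1437466_at at 8.03 and 8.21. The fifth, 1443086_at, was at 3.30 and 3.34. It was not above the background level on either array, and limma placed it below 5 (adjusted p = 6.7e-06). The arrays differed by 0.23 or less for every Alcam probe set. Why 1 probe set of Alcam is low was not tested.

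Mcam (CD146), known from endothelium, pericytes and marrow stroma, had a single probe set (1416357_a_at), at 5.41 on array 1 and 5.67 on array 2. Its mean of 5.54 ± 0.18 had a 95% interval of 5.30 to 5.77 from limma. The interval lay above 5 (adjusted p = 0.0024), yet all of it was below the 6.05 of the background receptors. Mcam was not told apart from background on these arrays.

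Ngfr and Cspg4, markers of marrow stromal subsets that also label glia and pericytes, were not above 8 with any probe set. Ngfr (CD271), the low-affinity receptor of neurotrophins, was at 5.76 and 5.68 with probe set 1454903_at, a mean of 5.72 ± 0.056. Its 2 other probe sets were at 4.55 and 4.40 (1421241_at) and at 4.41 and 4.31 (1450177_at). Both of those were below 5 on both arrays, with adjusted p-values of 0.0014 and 4.4e-04 from limma. Ngfr was thus above 5 with 1 of 3 probe sets and above the background level with none.

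Cspg4 (NG2), a proteoglycan of pericytes and glial progenitors, was at 6.63 on array 1 and 6.44 on array 2 with probe set 1450944_at (mean 6.54 ± 0.13). The other probe set, 1423341_at, was at 5.84 and 5.65. Both were lower on array 2 by 0.19. The first was above the background level on both arrays, and the second was below it.

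Cd9 and Cd24a were far above every limit. Cd9, a tetraspanin that organises other membrane proteins and is carried by platelets, stem cells and many other cells, was at 11.91 on array 1 and 11.86 on array 2 with its only probe set (1416066_at), a mean of 11.89 ± 0.037. The difference of 0.05 between the arrays was small beside the distance of the mean from 8. Cd24a encodes a short, heavily glycosylated protein of immature blood cells, epithelia and neural cells. Its probe set 1448182_a_at was at 11.67 and 11.77, with a mean of 11.72 ± 0.073, and 1416034_at was at 10.68 and 10.76. The third, 1437502_x_at, was at 9.14 and 9.43, and its name ending in _x_at marks probes that may also bind other sequences. Without such probe sets, and without those ending in _a_at, Cd24a was still above 8 on both arrays with 1416034_at.

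**Figure D2:**
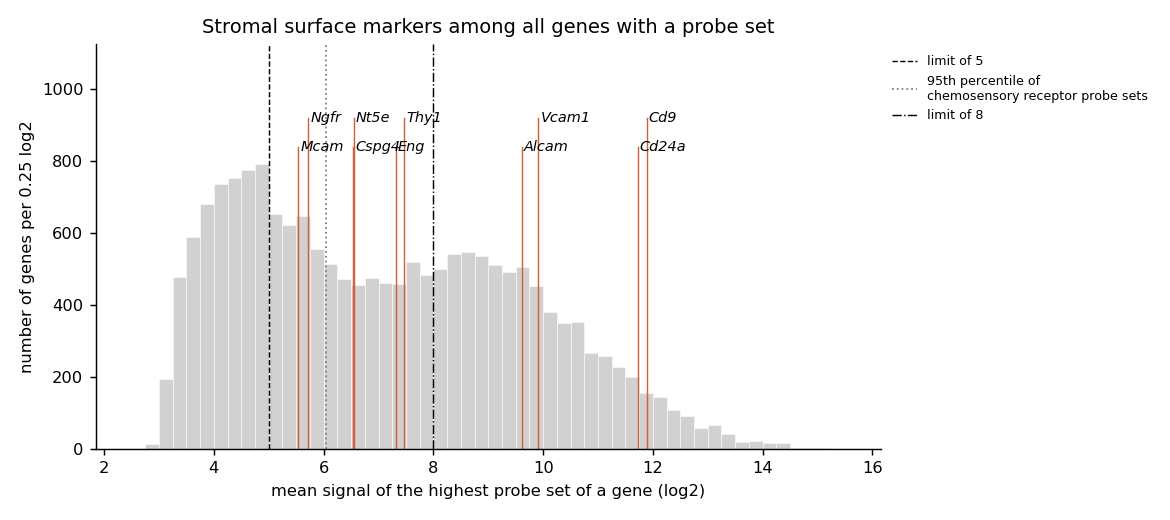
Number of genes by mean log2 signal of their highest probe set on the 2 CH cell arrays (grey, 18193 genes, bins of 0.25 log2), with an orange line at the level of each marker gene. Mcam and Ngfr lie between 5 and 6.05, Nt5e, Cspg4, Eng and Thy1 between 6.05 and 8, and Alcam, Vcam1, Cd24a and Cd9 above 8.

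The 2 pools gave similar signals for the markers. The median absolute difference between the arrays was 0.14 over the 24 marker probe sets and 0.12 over all probe sets. Of the 24, 15 were lower and 9 higher on array 2, where 49.7% of all probe sets were lower. All probe sets of Eng, Nt5e, Ngfr and Cspg4 were lower there, by 0.08 to 0.40, whereas all 3 of Cd24a were higher, by 0.08 to 0.29. Vcam1 and Alcam had probe sets in both directions. Among all probe sets of a similar level (bins of 1 on the log2 scale), 22 of the 24 differences lay between the 5th and the 95th percentile. With 1 array for each pool, no difference between pools was tested.

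**Figure D3:**
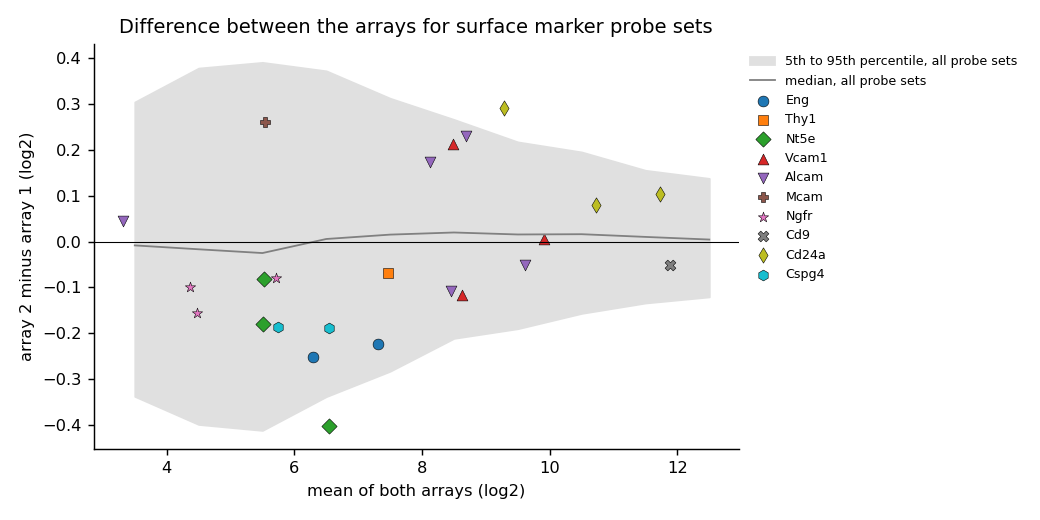
Difference in log2 signal between array 2 and array 1 against the mean of both, with 1 symbol for each marker probe set. The grey band spans the 5th to 95th percentile of all probe sets at that level, and 22 of the 24 symbols lie within their bin's range, with the lowest symbol, of Nt5e, at -0.40.

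Few sequence features could be set beside these levels. A promoter sequence from RefSeq (GRCm38.p6) was matched for 7 of the 10 genes, Eng, Nt5e, Alcam, Mcam, Ngfr, Cd9 and Cspg4. The GC box GGGCGG, a binding motif of Sp1 and related factors, was searched on either strand in the 250 bases before the annotated start. It was found in 6 of the 7, all except Eng, and in 32.7% of 32851 promoters. These 32851, called all promoters below, left out 1 chromosome and were not limited to genes with a probe set. The letters CCAAT were found on either strand in 1 of the 7, Alcam, and in 33.8% of all promoters, and TATAAA in 0 of the 7 and in 12.4% of all. Of CpG dinucleotides, the 7 windows had a median of 16 and all promoters one of 6, so these sets were unlike in CpG content. The GC box shares were not compared among promoters of like CpG content. The windows of Cd9, which was above 8, and of Ngfr, which was not told apart from background, are shown as an example of each kind. Capitals mark the GC box on either strand.
Cd9, chr6:125494761-125495010, minus strand: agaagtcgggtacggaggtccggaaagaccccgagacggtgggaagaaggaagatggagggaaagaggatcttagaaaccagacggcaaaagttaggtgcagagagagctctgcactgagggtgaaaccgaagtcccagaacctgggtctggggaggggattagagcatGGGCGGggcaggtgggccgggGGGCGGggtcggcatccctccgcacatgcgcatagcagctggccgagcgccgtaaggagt
Ngfr, chr11:95587699-95587948, minus strand: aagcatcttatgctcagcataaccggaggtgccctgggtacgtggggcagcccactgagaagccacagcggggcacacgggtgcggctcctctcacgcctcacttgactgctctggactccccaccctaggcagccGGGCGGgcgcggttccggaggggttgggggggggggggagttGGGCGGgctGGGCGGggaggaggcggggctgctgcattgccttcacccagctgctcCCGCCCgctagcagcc

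Cd9 had 2 matches and Ngfr 4. The match is a description of the letters, and the arrays measured neither binding nor initiation at these windows.

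The known ligands, receptors and complex partners of the markers were read by the same rule. The list of partners, too, was chosen with earlier results of these data known. Of 60 partner genes listed, 54 had a probe set naming them alone. Above 5 on both arrays were 47 of these, beside 71.2% of all genes. The partners above 8 numbered 24, beside 37.0% of all genes, and the median of the 54 was 7.59. With the lowest probe set of each gene in place of the highest, 33 of the 54 were above 5, beside 50.4% of all genes. The level of each partner is the mean of both arrays ± SD for its highest probe set. That SD does not cover differences among the probe sets of a gene. For example, 2 of 3 probe sets of Tgfbr2 and 3 of 5 of Itgav were above 5 on both arrays. So were 3 of 6 of Adk, 2 of 4 of Mpdz and 1 of 2 of L1cam.

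Of 10 receptors and ligands that act with Eng, 9 were above 5. Tgfbr2, the type II receptor for TGF-beta, was at 11.66 ± 0.016. The partner not above 5 was Acvrl1 (ALK1), the type I receptor through which Eng acts in endothelium, at 4.14 and 3.99 on the arrays. Thy1 is bound by integrins in concert with syndecan-4. Of these, Itgav was at 12.10 ± 0.11 and Sdc4 at 11.43 ± 0.019. Itgb3, an integrin chain that pairs with Itgav, was at 5.60 and 5.49, below the level of 6.05.

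Around Nt5e, 4 of 6 matched partners were above 5. Entpd1 (CD39), which breaks ATP down to AMP, was at 3.86 and 3.74, and Entpd2, a related enzyme, at 6.00 and 6.06. Adora3, an adenosine receptor, was at 4.97 and 4.82, and limma did not separate it from 5 (adjusted p = 0.25). Slc29a1, an adenosine transporter, was at 8.95 ± 0.10, Adk, which phosphorylates adenosine, at 11.58 ± 0.0092, and Ada, which deaminates it, at 6.28 ± 0.081. The other 3 adenosine receptors were not analysed here.

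The integrin counter-receptor of Vcam1 is made of Itga4 and Itgb1. Itgb1 was at 11.36 ± 0.083, with 3 of its 6 probe sets above 5 on both arrays. Itga4 was at 5.27 and 5.55, below the background level, and 4 of its 5 probe sets were below 5 on at least 1 array. Itgb7 and Itga9, chains of further Vcam1 receptors, were at 6.89 ± 0.024 and 5.88 ± 0.075. Msn and Ezr, which tie the Vcam1 tail to actin, were at 11.74 ± 0.015 and 9.30 ± 0.052. The Alcam ligands Cd6 and L1cam were at 5.28 ± 0.047 and 6.36 ± 0.061, so L1cam alone of this pair exceeded 6.05.

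Lgals1, a galectin that binds Mcam, was at 14.79 ± 0.026, and Wnt5a, also a ligand, at 9.10 ± 0.019. Kdr, the VEGF receptor with which Mcam associates, was at 6.43 ± 0.014, and Lama4, a laminin chain bound by Mcam, was at 5.23 on array 1 and 4.95 on array 2, on either side of the limit. Of 9 matched genes of neurotrophin signalling, 8 were above 5. Bdnf, a neurotrophin that binds Ngfr, was at 11.18 and 11.31, while Ntf5, another, was at 4.47 and 4.38.

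All 6 partners of Cd9 were above 7 on both arrays. Cd81, a related tetraspanin, was at 13.20 ± 0.11, and Cd151, also a tetraspanin, at 11.66 ± 0.015. The integrin chains Itga6 and Itga3 were at 11.35 ± 0.068 and 7.83 ± 0.017, and Igsf8 and Ptgfrn, direct binding partners of Cd9, at 7.97 ± 0.080 and 7.48 ± 0.10. For Cd24a, the ligands Siglecg and Selp, known from leukocytes and from platelets and endothelium, were at 7.22 ± 0.059 and 5.44 ± 0.044. For Cspg4, the type VI collagen chains Col6a2 and Col6a1 were at 12.99 ± 0.090 and 11.08 ± 0.050, Mpdz, a scaffold of its tail, at 9.74 ± 0.092 and the growth factor Pdgfa at 8.87 ± 0.048. Fgf2, a growth factor held by Cspg4, was at 4.57 and 4.17, and Grip1, a further scaffold, at 5.42 and 4.71, the widest difference between the arrays among the partners.

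**Figure D4:**
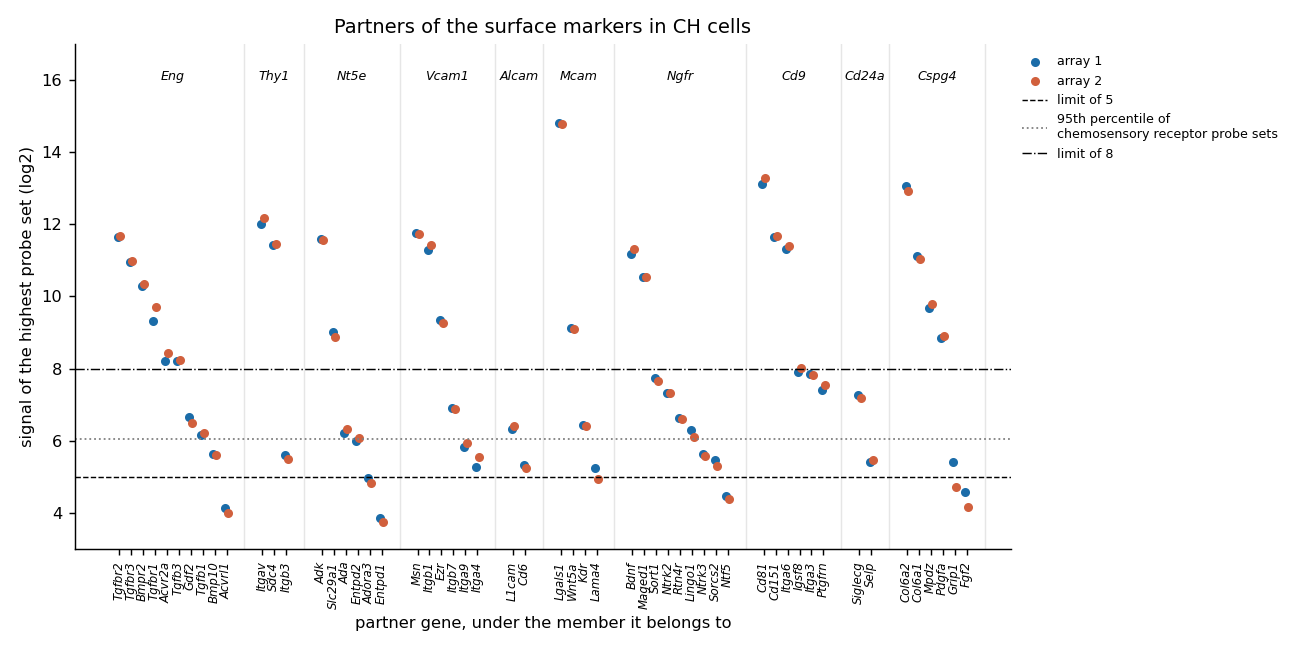
Log2 signal of the highest probe set of 54 partner genes on array 1 (blue) and array 2 (orange), grouped under the marker each belongs to. The dashed line marks 5, the dotted line 6.05 and the dash-dotted line 8, and 7 partner genes are not above 5 on both arrays.

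Other surface markers of stromal cells were found on both sides of the limits. Of 14 that were matched, 9 were above 5 on both arrays, beside 71.2% of all genes. Above 6.05 were 8 and above 8 were 7, beside 57.3% and 37.0% of all genes. The median was 7.76. Those above 5 and not above 8, named after their values were seen, were the integrin chain Itga5 at 6.51 ± 0.050 and the peptidase Mme at 5.80 and 6.30. Cd44, the hyaluronan receptor, was at 13.00 ± 0.0048. The others above 8, also named after their values were seen, were Itgav at 12.10, Pdpn at 11.91 and Itgb1 at 11.36. With them were Pdgfrb at 10.82, Pdgfra at 10.63 and Cd248 at 9.01. Ly6a was listed too but had no probe set naming it alone. The 5 not above 5 were the leptin receptor Lepr at 4.90 ± 0.058, the peptidase Anpep at 4.53 ± 0.026, Bst1 at 3.81 ± 0.24, the fibroblast activation protein Fap at 3.98 ± 0.14 and Cd200 at 3.35 ± 0.33. With the lowest probe set of each gene in place of the highest, 4 of the 14 were above 5.

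Antigens that stromal cells are defined to lack were mostly near or below 5. Of 10 matched, 5 were above 5 on both arrays, beside 71.2% of all genes. Above 6.05 were 2, beside 57.3% of all genes, and the median was 5.13. Ptprc, the CD45 antigen that the sort selected against, was at 4.95 and 5.24, and limma did not separate it from 5 (adjusted p = 0.36). The stem cell antigen Cd34 was at 4.62 and 4.54 and Itgam (CD11b) at 3.78 and 3.92. The B cell receptor chain Cd79a was at 4.84 and 4.59 and the endothelial Pecam1 at 4.60 and 4.54. The highest was Cd14, the lipopolysaccharide co-receptor of monocytes, at 8.31 and 8.20, above 8 on both arrays, and the other above 6.05 was the receptor Kit, named after its value was seen, at 7.00 ± 0.055.

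Markers of other cells that carry these surface proteins were read beside them, and their part in the marker signals was not tested. Beside the counts of all the lists that follow, 71.2% of all genes were above 5, 57.3% above 6.05 and 37.0% above 8. Thy1 is also a T cell protein, and of 8 T cell genes 4 were above 5 and 2 above 6.05 (3.77 to 6.61). Cd3e was at 6.61 ± 0.065, Cd5 at 4.53, Cd247 at 4.39, Cd3g at 3.88 and Cd2 at 3.77. The others above 5, named after their values were seen, were Cd4 at 6.08, Cd8a at 5.96 and Cd3d at 5.20. Cd24a is also carried by B cells and red cell precursors. Of 7 B cell genes 3 were above 5 on both arrays (4.33 to 7.92). Ighm was at 7.92 ± 0.27, with 4 of its 11 probe sets above 5. Cd22 at 5.81 and Pax5 at 5.50 were named after their values were seen. Cd79b was at 4.89 on array 1 and 5.47 on array 2, Blnk at 4.86 and Ms4a1 at 4.33. Of 7 erythroid genes 2 were above 5 (3.28 to 7.14), Epor at 7.14 ± 0.18 and, named after its value was seen, Klf1 at 5.90. Alas2 was at 4.91, Ermap at 4.86, Slc4a1 at 4.44, Hba-a1 at 4.22 and Rhag at 3.28. In both lists 1 gene was above 6.05. Cd9 is abundant in platelets, and of 8 platelet genes 6 were above 5, 4 above 6.05 and none above 8 (4.04 to 7.18). Itga2b was at 7.18 ± 0.0031, Gp6 at 4.61 and Clec1b at 4.04. The others above 5, also named after their values were seen, were Ppbp at 6.99, Gp9 at 6.41 and Gp1bb at 6.34. With them were Pf4 at 5.98 and Gp5 at 5.41.

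Eng, Mcam and Vcam1 are known from endothelium. Of 11 endothelial genes 6 were above 5, 2 above 6.05 and none above 8 (3.83 to 7.32), with Egfl7 at 7.32 and with Pecam1, Tek, Tie1, Vwf and Emcn at 3.83 to 4.57. The others above 5, named after their values were seen, were Kdr at 6.43, Cldn5 at 5.53, Esam at 5.36, Cdh5 at 5.13 and Erg at 5.06. Cspg4 and Mcam are pericyte markers, and of 8 pericyte and smooth muscle genes 7 were above 5 and 5 above 6.05 (4.91 to 12.88), with the smooth muscle actin Acta2 at 12.88 ± 0.036 and Myh11 at 4.91 ± 0.21. Only 1 of the 3 Acta2 probe sets was above 5. Ngfr marks Schwann and neural crest cells, and of 6 such genes 3 were above 5 (4.58 to 6.55), 2 of them above 6.05. Erbb3 was at 6.55 ± 0.024, Sox10 at 6.41 ± 0.14 and S100b at 5.30. Tfap2a was at 4.81, Foxd3 at 4.60 and Ednrb at 4.58.

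Vcam1 is also found on macrophages. Of 8 monocyte and macrophage genes 5 were above 5, 4 above 6.05 and 2 above 8 (3.75 to 9.58), namely Lyz2 at 9.58 ± 0.13 and Cd14. The others above 5, named after their values were seen, were Csf1r at 7.42, Cd68 at 6.23 and Fcgr1 at 5.43. Itgam, Adgre1 and Cd163 were at 3.85, 4.82 and 3.75. Cd9, Cd24a and Alcam are carried by many epithelia, and of 8 epithelial genes 7 were above 5, 6 above 6.05 and 4 above 8 (4.70 to 11.87, median 8.54), with keratin Krt8 at 11.87 ± 0.032 and Krt14 at 4.70 ± 0.021.

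**Figure D5:**
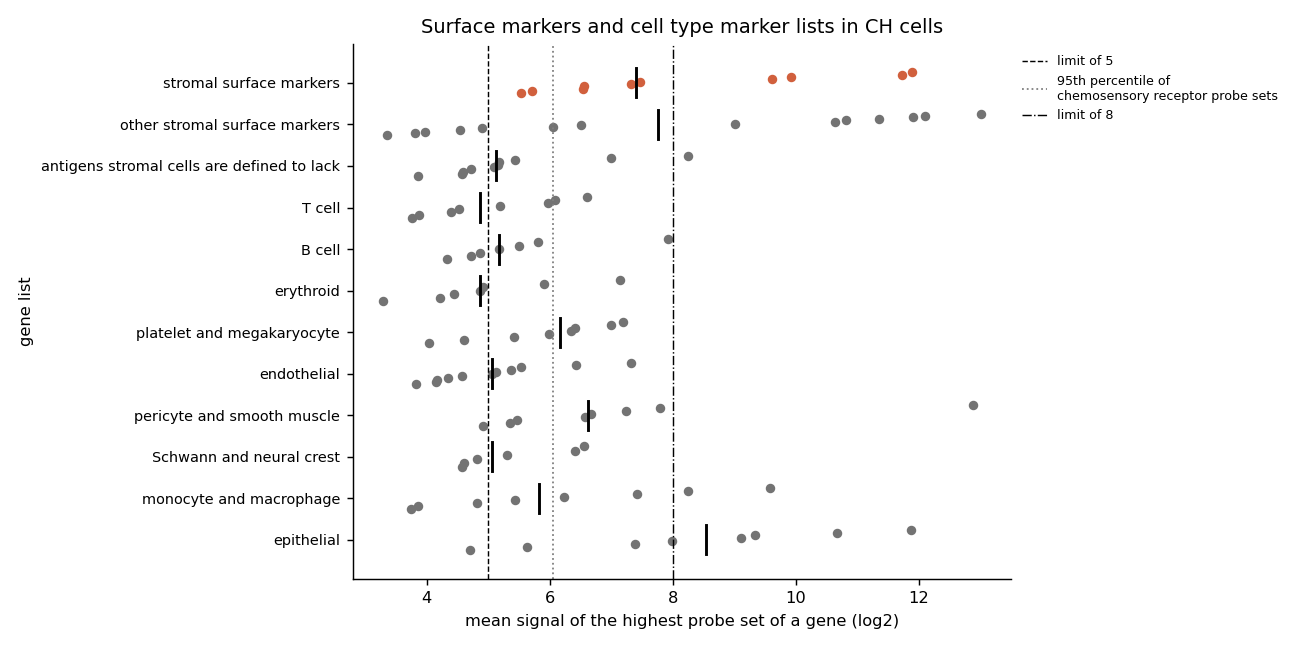
Mean log2 signal of the highest probe set of each gene, with 1 circle per gene, for the 10 surface markers (orange) and 11 lists of other markers (grey), and a black bar at each list's median. The dashed line marks 5, the dotted line 6.05 and the dash-dotted line 8, and the medians are 7.39 for the surface markers, 5.06 for endothelial genes and 8.54 for epithelial genes.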

How the data were processed

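RNA of CH cells was measured on 2 arrays. Values were used as the authors deposited them, in log2. The methods state that RMA was run, quantile normalisation included, on these and public arrays. Whether the deposited log2 table is the output of that run is not known here, and tool versions are not given in the sources. After removal of 64 control probe sets, 45037 remained, of which 34945 name 1 gene, 932 several and 9160 were not listed. Symbols were checked through Entrez identifiers against GRCm38.p6 (34741 matched, 0 changed). A gene was called when its highest probe set by mean exceeded 5 on both arrays. Means were set against 5 with limma 3.58.1 in R 4.3.3 (intercept alone, Benjamini-Hochberg adjustment over all probe sets, two-sided), tested on simulated data. P-values rest on the spread between 2 arrays, which limma moderates for each probe set towards the spread over all probe sets. The number of arrays limits their precision. Python 3.11.15 with pandas 2.3.3 was used. Named were all 10 markers and, of each list, the highest gene and those not above 5, or all of 6 or fewer. Further genes of the marker lists were named after their values were seen. The markers and lists were chosen with earlier results of these data known. No gene was named for likeness to a marker, since 2 arrays of 1 group hold no pattern to compare. Alternatives were other limits, limma, quantile normalization, leaving out an array, and other probe set rules.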

Additional observations from a re-analysis of the deposited data

How the results depend on the processing

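No paired analysis was possible because the 2 arrays form a single group. Of 140 counts recomputed under the alternatives, 107 stayed within 1.5 times their value and 33 did not. All 10 markers stayed above 5 after quantile normalization, with either array left out, and with limma, also with its trend and robust settings. At a limit of 6 or of 6.05 the count was 8, without Mcam and Ngfr. It was 9 with the median over probe sets, without Ngfr, and 8 with the lowest, without Alcam and Ngfr. Without probe sets ending in _s_at, _x_at or _a_at, Eng and Mcam had none left and the other 8 stayed above 5. The share of all genes above 5 was not computed without these endings, after quantile normalization or with an array left out. Nor was it computed for the trend and robust settings of limma. Counts under those settings therefore cannot be set beside the whole array. The construction of a higher limit sets the direction of its counts.

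At a limit of 8 the counts were 4 markers, 11 marker probe sets, 24 partners, 1 antigen that stromal cells are defined to lack, 0 T cell, 0 B cell, 0 erythroid, 0 platelet, 0 endothelial, 1 pericyte, 0 Schwann, 2 monocyte and 4 epithelial genes. At a limit of 6, as at 6.05, they were 2 antigens, 2 T cell, 1 B cell, 1 erythroid and 2 endothelial genes. Limma gave 3 antigens, as did the median or the lowest probe set of a gene, and 2 remained without the probe set endings above. The median gave 0 B cell genes. The lowest probe set gave 4 other stromal markers, 2 T cell, 0 B cell, 3 pericyte and 1 Schwann genes. Of all genes, 37.0% passed the limit of 8 and 57.8% that of 6. The call by limma took 69.1% of all genes, the median 65.2% and the lowest probe set 50.4%.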
